A study of Mus musculus with 7 samples.

Results

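The proteasome genes described here are the mouse genes named Psma, Psmb, Psmc, Psmd or Psme followed by a number, without the interferon-inducible catalytic genes Psmb8, Psmb9 and Psmb10. They were chosen by symbol among probe sets with 1 gene symbol, and where a gene had several, the one brightest on average over the 7 arrays stood for it. This gave 39 of the 18193 genes on the array, of which 38 passed a filter on low signal, and 1, Psmb11, did not. Of the 39 genes 31 encode standard subunits, 14 of the core particle and 17 of the regulatory particle. The others are 3 assembly chaperones (Psmd5, Psmd9, Psmd10), 3 activators (Psme1, Psme3, Psme4) and 2 core subunits that other organs use (Psma8 in testis, Psmb11 in thymus), so the list is wider than the constitutive proteasome. Psme2 was not analysed here, since its probe set carries 2 gene symbols.

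The values come from macrophages isolated from C57/Bl6 mouse brain by GFP and F4/80, in 3 preparations from normal brain of mice 8 weeks old and 4 from tumours of GL261, a glioma line of the mouse, taken at day 21. The tumours grew in the brains of hosts whose bone marrow had been replaced by GFP-labelled marrow. For the normal brain mice no such marrow is stated, which leaves the GFP gate of that group unknown, and no age is given for the tumour-bearing mice. The labels do not say whether arrays came from separate mice, so p-values measure only the spread between these arrays. Expression was measured on Affymetrix arrays as MAS5 signal, a linear intensity, and is given as log2(signal + 6). In whole preparations a change in the share of a cell type and a change in RNA per cell cannot be told apart.

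The proteasome degrades proteins that carry ubiquitin chains. Its barrel-shaped core particle is built from outer alpha rings, which gate the entry, and inner beta rings, which hold the proteolytic sites. The regulatory particle caps the barrel: its ATPases unfold the substrate and its non-ATPase subunits bind ubiquitin and remove it. In macrophages the peptides made by the proteasome also feed antigen presentation on MHC class I, for which interferon exchanges the catalytic subunits for Psmb8, Psmb9 and Psmb10.

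Of the proteasome genes 26.3% were called higher in GL261 macrophages, by modest amounts, and most were not called. In limma across the 12125 genes tested, 10 of the 38 genes were called higher in GL261 at a Benjamini-Hochberg adjusted p under 0.05 and 0 were called lower. Over all genes tested 10.1% were called, 5.92% higher and 4.2% lower, so the 26.3% of proteasome genes called higher lies above the background share. The log2 fold change was above 0 for 36 of the 38 genes and for 52.8% of all genes, with a median of 0.48, against a median of 0.04 over all genes tested. At an unadjusted p under 0.05, 20 of the genes were higher and 0 lower, where 26.1% of all genes passed, 15.2% higher. For 17 genes every GL261 array lay above every normal brain array, and for 0 every GL261 array lay below; over all genes 23.4% were without overlap, 13.1% above and 10.4% below. The median standard error of the log2 fold change was 0.17 for these genes and 0.32 over all genes, so a change of a given size is called more readily among them.

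**Figure D1:**
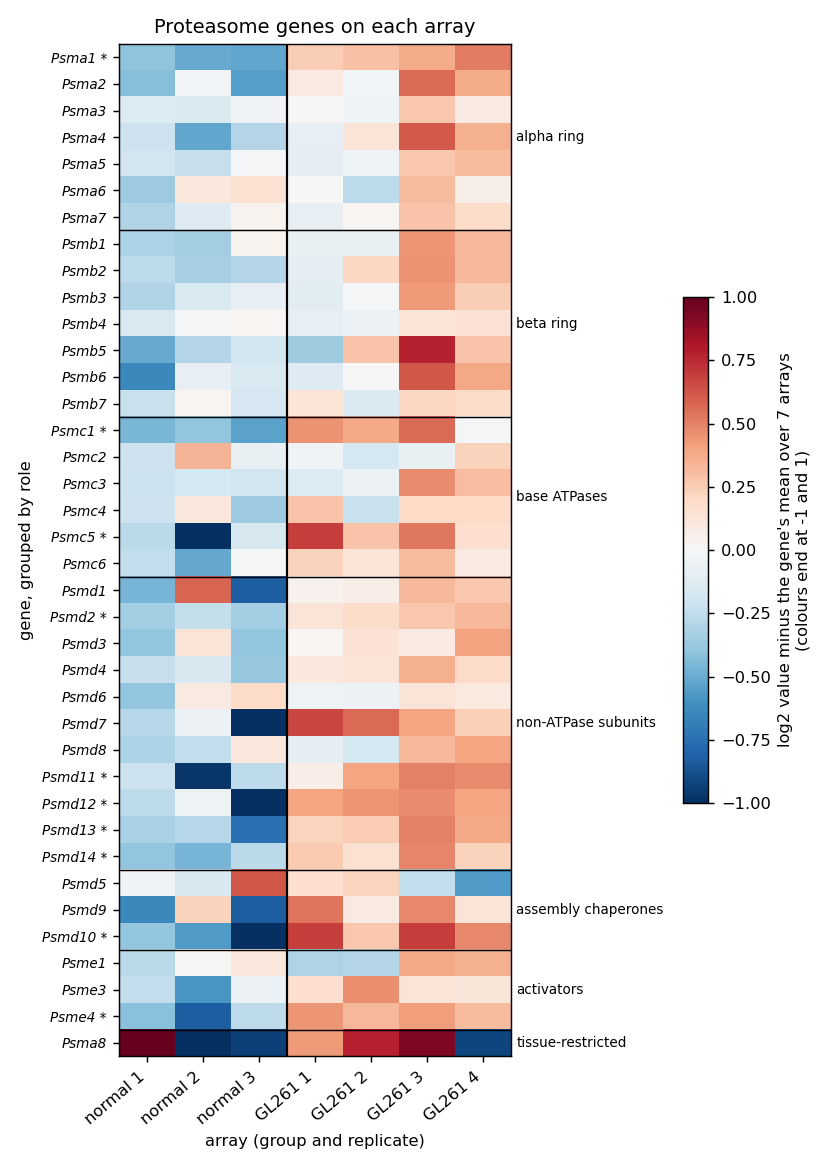
Heat map of the 38 tested proteasome genes (rows, grouped by role) on the 7 arrays (columns); colour is the log2 value minus the gene's mean over the arrays, ending at -1 and 1, and an asterisk marks the 10 genes called higher in GL261. Most rows are blue on the 3 normal brain arrays and red on GL261 replicates 3 and 4, while GL261 replicates 1 and 2 are paler in the alpha and beta rings.

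The number of called genes depended on the scaling, the signal filter and single arrays, while 0 genes were called lower in each of the 20 alternatives. With the filter at the 60th percentile 14 of 37 genes were called higher (37.8%), where 7.21% of all genes were. Without a filter 8 of 39 were called higher (20.5%), where 2.87% of all genes were. With each array centred on its median 4 genes were called higher (10.5%; Psma1, Psmc1, Psmd13 and Psme4), where 4.07% of all genes were. With quantile normalization 18 were called higher (47.4%), where 7.07% of all genes were. A further 2 settings left fewer: 2 genes (5.26%; Psma1 and Psmd10) were called with a variance prior that does not follow the signal, where 2.33% of all genes were higher, and 2 (5.26%; Psmd10 and Psmd14) with all probe sets of a gene averaged, where 4.38% were. Centring also moved the share of higher genes among all called genes from 58.5% to 47.1%. Without GL261 replicate 3, 3 proteasome genes were called (Psma1, Psmc1 and Psme4), beside 2.52% of all genes called higher, and without GL261 replicate 4, 5 were called, beside 3.41%. Averaged over the 38 genes, relative to each gene's mean over the arrays, the log2 value was -0.26, -0.27 and -0.31 in normal brain replicates 1 to 3. It was 0.12, 0.12, 0.38 and 0.21 in GL261 replicates 1 to 4, so replicate 3 was the highest array and the 2 groups did not overlap. The same average over all genes tested ran from -0.12 to 0.07. Without normal brain replicate 1 and GL261 replicate 2 together, 4 genes were called higher (10.5%), beside 4.41% of all genes, and the median was 0.46.

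**Figure D2:**
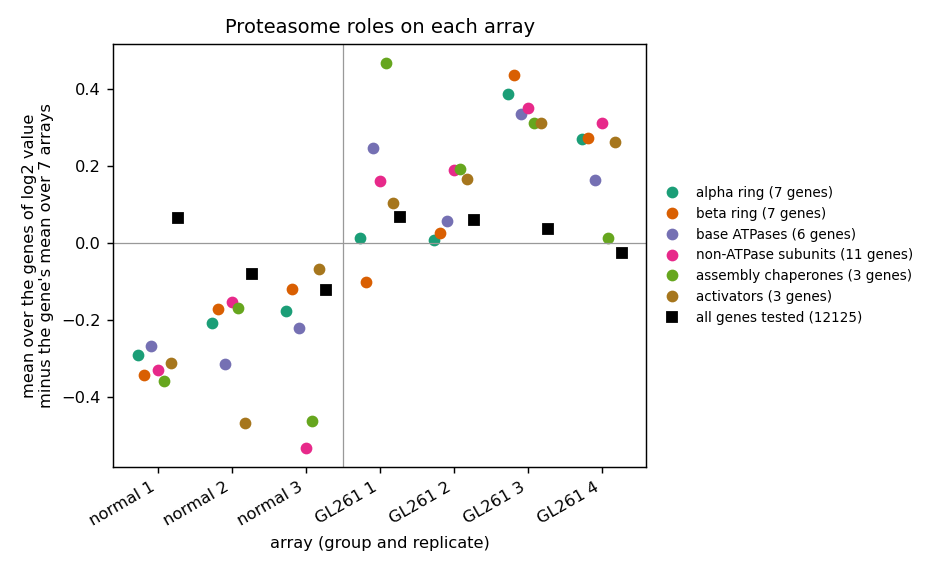
Mean log2 value of each role on each array, relative to each gene's mean over the 7 arrays (vertical axis) against the array (horizontal axis); coloured points are the 6 roles with more than 1 tested gene and black squares all genes tested. Every role lies below 0 on the 3 normal brain arrays, and the beta ring is also below 0 in GL261 replicate 1, at -0.10.

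The promoters of these genes were searched for the letters that such factors are known to bind, because many members were higher together. RefSeq promoters of GRCm38.p6 were given for 32 of the 39 genes, and the 250 bases before each start were searched on both strands. The motif TGACNNNGC, the core of the element that Nfe2l1 and Nfe2l2 bind, stood in 5 of 32 genes (15.6%) and in 11.5% of all 27025 genes with a promoter. CCAAT stood in 13 of 32 (40.6%) and in 37.5% of all. Both shares are near those of all genes, and of the 10 called genes 1, Psmd12, held the first motif and 4 the second. The stretches with the first motif, up to 50 bases to each side of the match within the 250 bases, are shown 5′ to 3′ on the strand of the gene with the match in capitals, since they include 2 of the proteolytic genes and the called gene.
Psmb5 (chr14:54617996-54618092, minus strand): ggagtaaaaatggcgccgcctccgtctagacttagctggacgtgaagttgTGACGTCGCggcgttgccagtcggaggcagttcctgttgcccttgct
Psmb6 (chr11:70525298-70525356, plus strand): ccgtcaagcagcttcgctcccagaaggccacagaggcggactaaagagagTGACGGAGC
Psmc6 (chr14:45329574-45329655, plus strand): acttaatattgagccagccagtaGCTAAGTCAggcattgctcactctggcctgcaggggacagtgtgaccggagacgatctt
Psmd9 (chr5:123228109-123228189, plus strand): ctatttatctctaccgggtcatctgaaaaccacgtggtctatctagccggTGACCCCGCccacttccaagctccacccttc
Psmd12 (chr11:107479278-107479339, plus strand): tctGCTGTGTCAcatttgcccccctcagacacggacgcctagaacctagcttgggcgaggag
In Psmb5, Psmb6 and Psmd9 the match reads forward and ends 38, 0 and 22 bases before the start, and in Psmc6 and Psmd12 it reads on the opposite strand, 218 and 238 bases before it. A match is a run of letters in the reference and no measurement of binding. Of these 5 genes only Psmd12 was called in limma (0.99, adjusted p = 0.0385), and the others lay between 0.44 and 0.72.

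The alpha ring had 1 of 7 genes called higher, with a median log2 fold change of 0.26. Psma1, a subunit of the ring that gates the barrel, was at 11.36, 11.26 and 11.25 in normal brain and at 12.01, 12.06, 12.13 and 12.28 in GL261. All GL261 values of Psma1 lay above all normal brain values, by more than the spread within either group. It rose 1.78-fold (log2 fold change 0.83, SE 0.14, limma adjusted p = 0.00384) and was called in each of the 7 fits without 1 array. Of its 3 other probe sets 2 had positive values (0.99 and 1.43) and 1 a negative value (-0.46), and these 3 were not called. Psma4 (0.60, adjusted p = 0.0577) and Psma2 (0.58, adjusted p = 0.0636) missed the threshold in limma. Psma2 passed when GL261 replicate 2 (adjusted p = 0.0494) or normal brain replicate 2 (0.0449) was left out, and Psma4 without GL261 replicate 1 (0.0455). Both passed with the filter at the 60th percentile (0.0488 for Psma2 and 0.0425 for Psma4). Psma3, Psma5 and Psma7 lay between 0.19 and 0.26 and were not called. Their other probe sets gave 0.24 for Psma3, 0.53 and 0.91 for Psma5 and 0.55 for Psma7, and were not called. With quantile normalization Psma2 (0.61, adjusted p = 0.0138) and Psma5 (0.33, adjusted p = 0.0233) were called as well.

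Psma6 had the smallest value of the alpha ring by the probe set used, which is marked as cross-hybridising. It was at 12.11, 12.58 and 12.63 in normal brain and at 12.48, 12.21, 12.79 and 12.54 in GL261, so the groups overlapped. Its log2 fold change of 0.07 (95% confidence interval -0.32 to 0.45) turned negative with each array centred on its median. The interval is wide, so no lack of change is shown. An unmarked Psma6 probe set of nearly the same mean (12.47 against 12.48) gave 0.29, which is above the values of the probe sets used for Psma3, Psma5 and Psma7. The remaining Psma6 probe sets gave -0.02 and -0.40. These other probe sets were not called when every probe set was tested by itself. With quantile normalization Psma6 was at 0.36 and called (limma adjusted p = 0.0371). The brightest probe set was chosen again after that scaling, so this value may belong to the unmarked one.

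The beta ring, which holds the proteolytic sites, had 0 of 7 genes called by limma, although all 7 values were above 0 (median 0.36) and 3 were higher at an unadjusted p under 0.05. With quantile normalization Psmb1 (0.44, adjusted p = 0.0164), Psmb3 (0.38, adjusted p = 0.0217) and Psmb6 (0.56, adjusted p = 0.0203) were called higher. Psmb5, which carries the chymotrypsin-like site, was at 10.29, 10.49 and 10.60 in normal brain and at 10.43, 11.07, 11.56 and 11.07 in GL261. Only GL261 replicate 1 fell within the normal brain range. The log2 fold change was 0.57 (95% confidence interval 0.06 to 1.08, limma adjusted p = 0.145), and without GL261 replicate 1 it was 0.77 with an adjusted p of 0.0467. Psmb6, which carries the caspase-like site, was at 11.78, 12.34 and 12.27 in normal brain and at 12.29, 12.42, 13.04 and 12.81 in GL261. Normal brain replicate 1 was the low array for this gene, and the groups overlapped in 1 GL261 array. Its log2 fold change was 0.51 (0.07 to 0.96, adjusted p = 0.134).

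Psmb7, which carries the trypsin-like site, differed least among the 3 proteolytic genes. It was at 12.16, 12.40 and 12.21 in normal brain and at 12.52, 12.24, 12.59 and 12.57 in GL261. GL261 replicate 2 lay inside the normal brain range. Its log2 fold change was 0.22 (95% confidence interval -0.09 to 0.53, limma adjusted p = 0.360). Of the structural beta subunits, Psmb2 was at 11.06, 10.99 and 11.02 in normal brain and at 11.23, 11.52, 11.77 and 11.65 in GL261. Its groups did not overlap, yet its log2 fold change of 0.52 missed the threshold (adjusted p = 0.0599) and passed it without GL261 replicate 1 (0.0450). Psmb2 also passed with the filter at the 60th percentile (0.0461). Psmb1 and Psmb3 were at 0.36 and 0.31 and were not called without quantile normalization. The other probe sets of Psmb1 pointed the other way, at -0.28 and -0.27, and were not called. The other probe set of Psmb3 gave 0.62 and was not called. Psmb4 was at 12.43, 12.57 and 12.60 in normal brain and at 12.50, 12.52, 12.72 and 12.72 in GL261. Its value was 0.08 (adjusted p = 0.745), or slightly below 0 with median centring, while its other probe set gave 0.57 (adjusted p = 0.0543 with every probe set tested by itself, and 0.0388, a call, with shared and cross-hybridising probe sets left out).

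The interferon-inducible catalytic genes, which replace these 3 subunits in the immunoproteasome, were also not called in limma with the signals as deposited. Psmb8, the counterpart of Psmb5, had a log2 fold change of 0.22 (adjusted p = 0.458), Psmb9, the counterpart of Psmb6, 0.16 (adjusted p = 0.616) and Psmb10, the counterpart of Psmb7, 0.44 (adjusted p = 0.112). All 4 GL261 arrays of Psmb10 (12.63 to 13.20) lay above the 3 normal brain arrays (12.27 to 12.53), and with quantile normalization Psmb10 was called (0.53, adjusted p = 0.003). The difference in change between standard and inducible subunits was not tested.

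**Figure D3:**
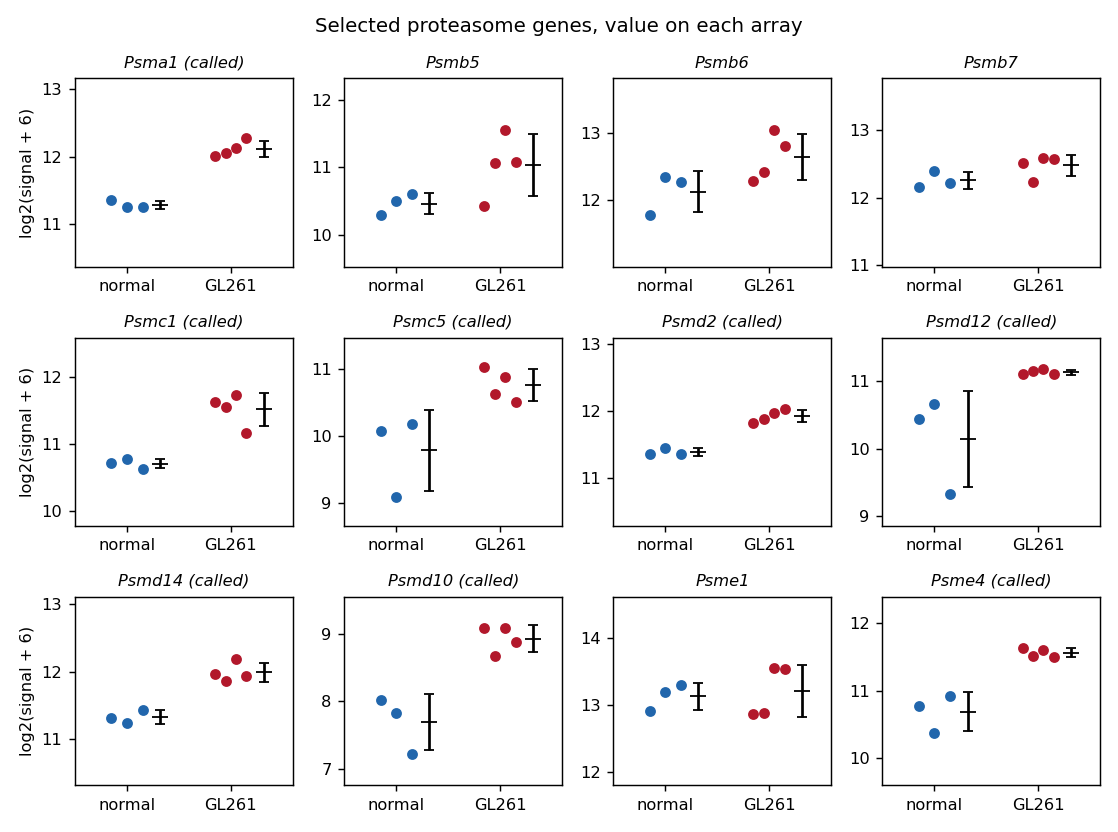
Log2(signal + 6) of 12 proteasome genes (vertical axes of equal span) in 3 normal brain (blue) and 4 GL261 (red) arrays; black bars are the mean and SD of each group. Psma1, Psmd2 and Psmd14 separate with little spread in both groups, Psmd12 and Psme4 are tight only in GL261, and Psmb7 and Psme1 overlap.

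The regulatory particle had 7 of 17 genes called higher (41.2%), against 1 of 14 in the core particle (7.14%), where 5.92% of all genes were. The median log2 fold changes were 0.45 and 0.34. Whether the particles differed in change was not tested, and the counts and medians moved with the setting. With quantile normalization 9 regulatory and 7 core genes were called higher, where 7.07% of all genes were. With all probe sets of a gene averaged, 1 and 0 were, where 4.38% of all genes were, and the medians were 0.3 and 0.49. With a variance prior that does not follow the signal, 0 and 1 were, where 2.33% of all genes were. Without GL261 replicate 3, 1 and 1 were, where 2.52% of all genes were. Of the 6 ATPases at the base of the regulatory particle, which form the unfolding ring, 2 were called. Psmc1 was at 10.71, 10.77 and 10.63 in normal brain and at 11.62, 11.55, 11.73 and 11.16 in GL261. Its groups were clearly apart, with GL261 replicate 4 the lowest of its group. It rose 1.75-fold (log2 fold change 0.81, SE 0.17, limma adjusted p = 0.0124), and the call held in each fit without 1 array.

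Psmc5 was at 10.08, 9.09 and 10.18 in normal brain and at 11.03, 10.63, 10.87 and 10.51 in GL261. Normal brain replicate 2 was far below the other arrays of this gene. Psmc5 rose by 0.98 (SE 0.26, limma adjusted p = 0.0374), or by 0.63 without that array (adjusted p = 0.0808). Its call was also lost without GL261 replicate 1 (0.0995), 2 (0.0570), 3 (0.103) or 4 (0.0596). Psmc3, Psmc4 and Psmc6 lay between 0.27 and 0.44 and were not called. The other probe set of Psmc4, at 10.30, 10.60 and 9.96 in normal brain and 11.10 to 11.37 in GL261, was called when every probe set was tested by itself (0.89, adjusted p = 0.0183). Psmc2, by a probe set marked as cross-hybridising, was the only standard subunit with a value below 0. It was at 11.60, 12.14 and 11.73 in normal brain and at 11.77, 11.63, 11.73 and 12.03 in GL261, with a log2 fold change of -0.04 (95% confidence interval -0.40 to 0.33). Its other probe sets, which are unmarked, gave 0.08 and 0.67 and were not called. Psmc2 was below 0 in 15 of 19 alternatives and reached 0.24 in the others.

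Of the 11 non-ATPase subunits 5 were called higher (median log2 fold change 0.54). Psmd14, the deubiquitinase that cuts ubiquitin chains from the substrate, was at 11.31, 11.23 and 11.43 in normal brain and at 11.97, 11.86, 12.19 and 11.93 in GL261. The groups were well separated. Psmd14 rose 1.59-fold (log2 fold change 0.66, SE 0.14, limma adjusted p = 0.0142) and lost its call only without GL261 replicate 3 (0.0513) among the fits without 1 array. Psmd2, a large scaffold that docks ubiquitin shuttle proteins, was at 11.36, 11.46 and 11.36 in normal brain and at 11.82, 11.88, 11.97 and 12.03 in GL261. It had the smallest change of the called genes, with little spread in either group. It rose 1.45-fold (0.54, SE 0.13, adjusted p = 0.0271). Its call was lost without normal brain replicate 1 (0.0597), 2 (0.0513) or 3 (0.0644), and likewise without GL261 replicate 3 (0.0765) or 4 (0.0718).

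Another 3 called genes encode scaffold subunits of the lid, the part of the regulatory particle around Psmd14. Psmd13 was at 10.38, 10.42 and 9.96 in normal brain and at 10.93, 10.96, 11.21 and 11.08 in GL261. It rose 1.73-fold (log2 fold change 0.79, SE 0.17, limma adjusted p = 0.0162) and lost its call without GL261 replicate 3 (0.0591). A second Psmd13 probe set was called as well (1.04, adjusted p = 0.0227), while another, at 4.88 to 6.64 on the log2 scale, had a value of -1.18 that was not called (adjusted p = 0.170). Psmd11 was at 10.71, 9.95 and 10.66 in normal brain and at 10.99, 11.32, 11.42 and 11.40 in GL261. Psmd11 rose 1.79-fold (0.84, SE 0.21, adjusted p = 0.0269), and its other 4 tested probe sets gave 0.99, 0.97, 0.78 and 0.20 and were not called. The value of 0.20 belongs to the next brightest probe set. With probe sets marked as shared left out, Psmd11 was at 0.20 and was not called. Its call was lost without normal brain replicate 2 (0.0696), and likewise without GL261 replicate 2 (0.0546), 3 (0.0818) or 4 (0.0724).

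Psmd12 was at 10.45, 10.67 and 9.32 in normal brain and at 11.11, 11.16, 11.18 and 11.11 in GL261. The GL261 arrays lay within a narrow band, and the normal brain mean was pulled down by replicate 3. Psmd12 rose 1.99-fold (log2 fold change 0.99, SE 0.27, limma adjusted p = 0.0385), or by 0.58 without normal brain replicate 3 (adjusted p = 0.0547). The call was also lost without GL261 replicate 1 (0.0812), 2 (0.0699), 3 (0.0976) or 4 (0.0814).

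The other 6 non-ATPase genes were not called in limma. Psmd7, the partner of Psmd14, had the largest value of the role (1.09, SE 0.40, adjusted p = 0.103). It was at 8.25, 8.48 and 7.01 in normal brain and at 9.20, 9.10, 8.93 and 8.77 in GL261, and its other 2 probe sets pointed the other way, at -0.95 and -1.01, and were not called. The probe sets of Psmd7 thus differ in direction. Psmd4, a ubiquitin receptor, was at 11.38, 11.45 and 11.23 in normal brain and at 11.71, 11.74, 11.96 and 11.81 in GL261. Its groups did not overlap, but its value of 0.45 was not called (adjusted p = 0.0616), while a second probe set was (0.81, adjusted p = 0.0331) and another gave -0.91 (adjusted p = 0.372). Psmd1, Psmd3 and Psmd8 lay between 0.26 and 0.41. With quantile normalization Psmd4 (0.43, adjusted p = 0.0363) and Psmd8 (0.35, adjusted p = 0.0337) were called. Psmd4 was also called with the filter at the 60th percentile (adjusted p = 0.0486). Psmd1 was 0.82 and called without normal brain replicate 2 (adjusted p = 0.0335) and 0.12 without normal brain replicate 3. Psmd6 was at 11.50, 11.99 and 12.09 in normal brain and at 11.84, 11.83, 12.02 and 11.99 in GL261, with a value of 0.06 that turned negative with median centring. Its other probe set gave -0.08 and was not called.

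**Figure D4:**
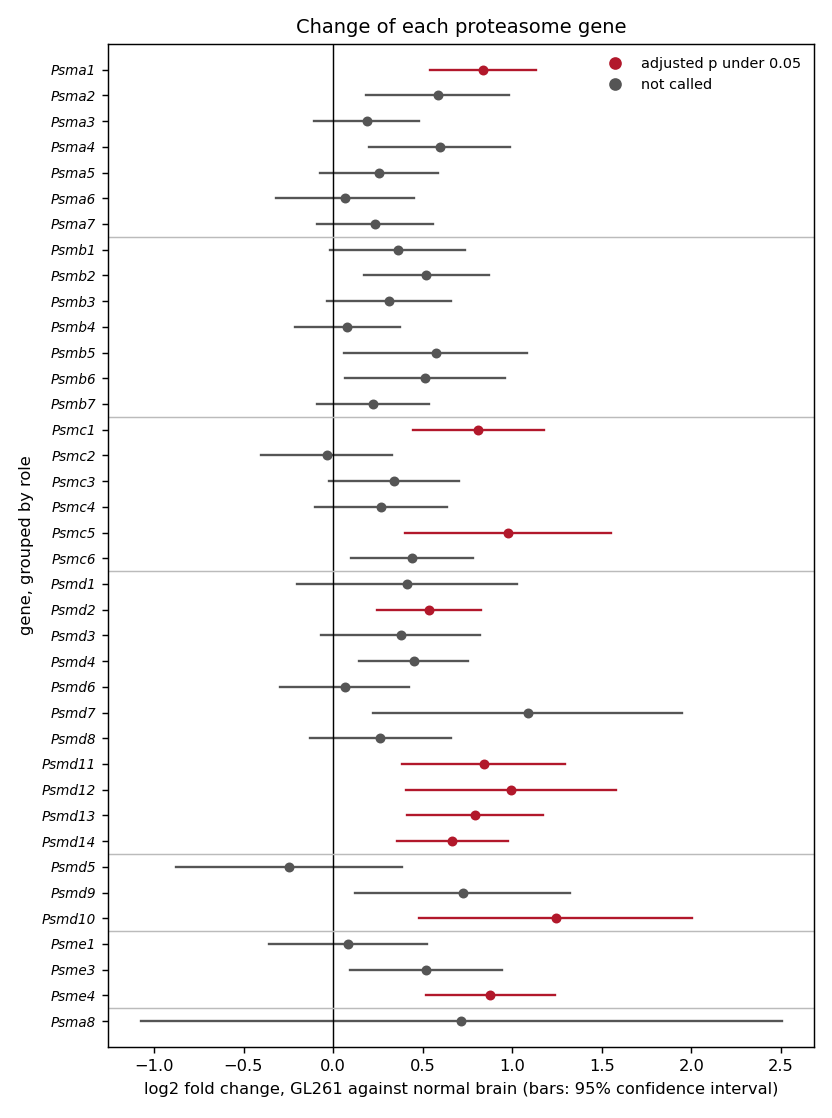
Log2 fold change of GL261 against normal brain (horizontal axis) with its 95% confidence interval for the 38 tested proteasome genes (vertical axis, grouped by role); red marks the 10 genes called at a limma adjusted p under 0.05. Points lie right of 0 for 36 genes, and the called genes range from 0.54 for Psmd2 to 1.24 for Psmd10.

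The assembly chaperones, which help the base of the regulatory particle form and then leave it, had 1 of 3 genes called higher, and values from -0.25 to 1.24. Psmd10, also known as gankyrin, was at 8.01, 7.83 and 7.22 in normal brain and at 9.09, 8.67, 9.09 and 8.88 in GL261. This was the largest change among the called genes, and the groups were far apart. Psmd10 rose 2.37-fold (log2 fold change 1.24, SE 0.35, limma adjusted p = 0.0433). Its call was lost without normal brain replicate 2 (0.0580) or 3 (0.0924), and likewise without GL261 replicate 1 (0.113), 2 (0.0643), 3 (0.129) or 4 (0.0885). Psmd9 had a value of 0.72 that was not called (adjusted p = 0.116) and was called without normal brain replicate 2 (1.05, adjusted p = 0.0269), while its other 2 probe sets gave -0.36 and -0.29. Psmd5 was at 9.43, 9.31 and 10.09 in normal brain and at 9.64, 9.69, 9.22 and 8.90 in GL261. Its value of -0.25 was not called (95% confidence interval -0.88 to 0.38).

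The activators open the core particle without ATP. Psme4, a large single-chain cap, was at 10.77, 10.36 and 10.92 in normal brain and at 11.63, 11.52, 11.61 and 11.50 in GL261. The GL261 values were nearly alike and all lay above normal brain. Psme4 rose 1.84-fold (log2 fold change 0.88, SE 0.16, limma adjusted p = 0.00803), and the call held in each fit without 1 array. Of its 5 other probe sets 3 were above 0 (0.18 to 0.57), 1 was at 0.00 and 1 at -1.58, and these 5 were not called. With probe sets that the platform marks as shared between transcripts left out, Psme4 was not called.

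Psme1, an interferon-inducible activator subunit, was at 12.91, 13.19 and 13.29 in normal brain and at 12.88, 12.89, 13.56 and 13.53 in GL261. Within GL261 the arrays fell into a low and a high pair, on both sides of normal brain. Its log2 fold change was 0.08 (95% confidence interval -0.36 to 0.52, limma adjusted p = 0.839), or below 0 with median centring. Psme3, the nuclear activator, was at 10.03, 9.69 and 10.22 in normal brain and at 10.45, 10.74, 10.42 and 10.40 in GL261. The groups of Psme3 did not overlap, but its value of 0.52 was not called (0.10 to 0.94, adjusted p = 0.111).

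The core subunits of other organs were set against a background level, taken as the 95th percentile of 27 Bacillus control probe sets on each array (4.19 to 4.70). Psma8, above background on 6 of 7 arrays, was at 7.36, 3.63 and 4.71 in normal brain and at 6.07, 6.42, 6.58 and 4.73 in GL261. Its highest and its lowest value were both in normal brain (0.72, SE 0.82, limma adjusted p = 0.622). Psmb11 was above background on 1 of 7 arrays, normal brain replicate 2, and was not tested.

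The choice of probe set bore on several genes. Of the 38 tested probe sets that were not used, which belong to 19 genes, 24 had values above 0 and 14 below. In limma with every probe set tested by itself, 3 of these were called higher and 0 lower, where 3.75% of all probe sets were called higher. They belong to Psmc4, Psmd4 and Psmd13. When all probe sets of a gene were averaged, the median log2 fold change was 0.33, and Psmd10 and Psmd14, the 2 genes then called, have 1 probe set each. Without the probe sets marked as shared or cross-hybridising 9 genes were called higher (23.7%), beside 6.1% of all genes.

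**Figure D5:**
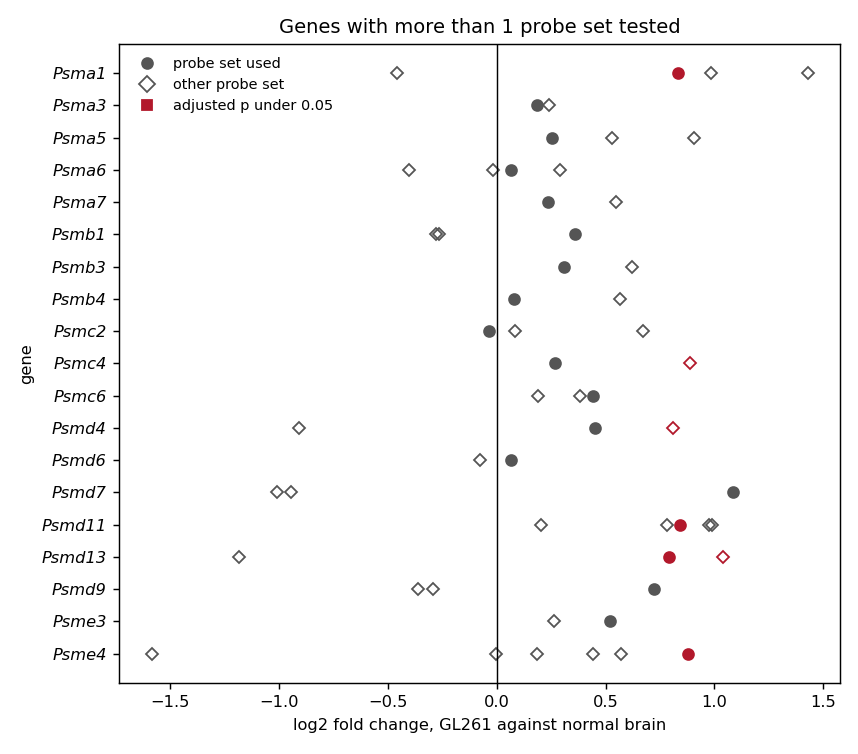
Log2 fold change (horizontal axis) of every tested probe set of the 19 proteasome genes with more than 1 (vertical axis); filled circles are the probe sets used, open diamonds the others, and red marks an adjusted p under 0.05 with every probe set tested by itself. For Psma3, Psma5, Psma7, Psmb3, Psmb4, Psmc2 and Psmc4 every other probe set lies further right than the one used. For Psmb1, Psmd6, Psmd7 and Psmd9 the others lie left of 0.

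Of the other genes of the pathway, given from fixed lists, few were called in limma. Of 5 tested assembly factors outside the naming rule 0 were called, and Pomp, which matures the core particle, had a log2 fold change of 0.43 (adjusted p = 0.122) with all GL261 values (12.62 to 13.29) above normal brain (12.43 to 12.52), and was called with quantile normalization (0.53, adjusted p = 0.00661). Psmg3 had the smallest p of these (0.47, adjusted p = 0.114), and Psmg1, Psmg2 and Psmg4 lay between -0.25 and -0.05. All GL261 values of Psmg3 lay above normal brain, and all GL261 values of Psmg2 (9.73 to 9.98) lay below it (10.04 to 10.24). Of 7 other components and inhibitors 0 were called; the deubiquitinase Uchl5 was at 0.63 (adjusted p = 0.0792; called without normal brain replicate 3, 0.0329) and the inhibitor Psmf1 at 0.38 (adjusted p = 0.404). Of 9 shuttles and segregase factors 1 was called higher. Ufd1, an adaptor of the unfolding ATPase Vcp, was at 10.12, 9.81 and 9.93 in normal brain and at 10.74, 10.48, 10.71 and 10.61 in GL261. It rose 1.61-fold (0.68, SE 0.17, adjusted p = 0.0296). Its call was lost without normal brain replicate 2 (0.0702) or 3 (0.0571), and likewise without GL261 replicate 1 (0.0853), 3 (0.0897) or 4 (0.0673). Uba6, the only tested gene of the ubiquitin and activating enzyme list, was at 0.64 (adjusted p = 0.127), and below 0 in 1 of 19 alternatives (-0.57).

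Proteasome genes share transcription factors. Nfe2l1, which is known to drive them together when the proteasome is impaired, was at 10.92, 10.74 and 10.92 in normal brain and at 10.72, 10.99, 11.21 and 10.67 in GL261. Its log2 fold change was 0.04 (95% confidence interval -0.34 to 0.42, limma adjusted p = 0.916), or below 0 with median centring and with quantile normalization. Nfe2l2, its relative of the oxidative stress response, was at 12.60 to 12.61 in normal brain and at 12.59 to 12.66 in GL261 (0.01, -0.26 to 0.28, adjusted p = 0.974), or below 0 with median centring. Nfe2l2 was below 0 in 4 of 19 alternatives, down to -0.35, and was called in 0. The values of both factors overlapped between the groups at the mRNA level. Of the 10 tested genes of this list 1 was called lower and 0 higher. Nfya, a subunit of the factor that binds CCAAT, was at 11.98, 11.99 and 11.97 in normal brain and at 11.39, 11.49, 11.32 and 11.45 in GL261. Nfya fell by 0.57 (SE 0.13, adjusted p = 0.0196) and lost its call without normal brain replicate 2 (0.0513) or GL261 replicate 1 (0.0513) or 3 (0.0625). With all its probe sets averaged, Nfya was at -0.05 and was not called.

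Other features of the preparations moved with the groups. All 8 macrophage and leukocyte markers were above background on every array, with a summed signal of 52650 to 61740 in normal brain and 45210 to 62000 in GL261. Adgre1, the gene of F4/80, was not called (-0.39, limma adjusted p = 0.0814), although all GL261 arrays lay below normal brain. Mertk was called higher (2.09-fold, limma adjusted p = 0.0243). Of 9 dividing-cell genes 3 were called higher and 6 were above background on every array, and their summed signal was 3028 to 3376 in normal brain and 5808 to 12330 in GL261. Of 6 interferon-response genes 5 were called higher, with sums of 9392 to 11620 and 21670 to 26800. GL261 replicate 3, the array with the highest proteasome average, had the highest interferon, macrophage and leukocyte, astrocyte and neuron sums, while the highest dividing-cell sum was in GL261 replicate 2. Of the markers tested, 4 of 4 B cell, 4 of 4 neutrophil, 2 of 2 red cell, 4 of 4 microglia and 2 of 4 endothelial genes were called lower in limma. The other 2 endothelial genes had values above 0, Pecam1 at 1.23 with all GL261 arrays above normal brain and Kdr at 0.43, and were not called. Sums were lower in GL261 for B cell (4002 to 5133 against 660.3 to 1303), neutrophil (4909 to 5614 against 84.75 to 1385), red cell (9406 to 16060 against 68.03 to 4439), endothelial (1472 to 1716 against 285.4 to 891.5) and microglia markers (12170 to 16040 against 6606 to 9292). They were higher for oligodendrocyte lineage markers (84.74 to 244.7 against 678 to 1302), of which 3 of 4 tested were called higher and 1 of 5 was above background on every array. Of 4 pericyte genes 1 was called higher, Col1a1 (6.64-fold, limma adjusted p = 0.0353), with sums of 342.5 to 1342 in normal brain and 1205 to 2525 in GL261. Of 5 T and NK cell genes 1 was called higher, Nkg7 (1.94-fold, adjusted p = 0.0407), with sums of 1944 to 3496 and 2706 to 4542. Of 3 tested astrocyte and 2 tested neuron genes 0 were called. The astrocyte sums were 233.3 to 390.4 in normal brain and 301.9 to 1124 in GL261. The neuron sums were 147.1 to 213.9 in normal brain and 68.97 to 743.9 in GL261. Gapdh, read at its 3' end relative to its 5' end as a measure of RNA integrity, gave a ratio of 1.75 ± 0.127 (SD, n = 4) in GL261 against 2.41 ± 0.0243 (SD, n = 3) in normal brain (two-sided exact permutation p = 0.0286, the smallest that 35 splits allow). The same ratio of actin was 1.42 ± 0.0715 (SD, n = 4) in GL261 against 1.57 ± 0.116 (SD, n = 3) in normal brain. The actin values overlapped between the groups (two-sided exact permutation p = 0.143). The part of cell division, interferon response, other cells and RNA quality in the proteasome values was not tested.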

How the data were processed

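The deposited file gives 1 linear MAS5 signal intensity per probe set for 3 normal brain and 4 GL261 arrays, made by the authors with MAS5 per the submitters' processing notes. The sources used here name no MAS5 version and hold no detection calls. Without the lowest and highest 2% the mean was about 500 on every array, so no further scaling was applied. Of 45101 probe sets 64 were controls, 34945 had 1 gene symbol, 932 several and 9160 none. These linear signals were analysed as log2(signal + 6), 6 being the 20th percentile of all values, which understates changes of dim genes. Each of 18193 genes kept the probe set with the highest mean, and 12125 with a mean above 4.93, the 40th percentile, were tested with limma 3.58.1 in R 4.3.3 with variances that follow the signal. Two-sided p-values were adjusted by Benjamini-Hochberg over all of them. Signals of different probe sets are not comparable as levels. Figures used Python 3.11.15 and matplotlib 3.10.9.

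Named were all called members, the proteolytic genes, the activators, the extremes of each role, other probe sets that differed in sign or call, a fixed set of pathway genes, and from each pathway list up to 3 called genes or the gene with the smallest p. The members and lists were chosen with earlier results of these data known. Alternatives were other pseudocounts, filters, scalings, variance models, array weights, probe set choices, the replicate number as a block and leaving out arrays. Leaving out 2 arrays together and leaving out probe sets marked as shared were added after the data were seen. The fit was tested on simulated data (12125 genes, 200 of them changed, 10 runs). It found 25% of the changes of log2 1, 60.8% of the changes of log2 2, and a false share of 4.56% among its calls. The share of changed genes was set below the 10.1% called in the data, and they were drawn from all genes tested. The recovered shares therefore do not give the sensitivity for the proteasome genes, whose standard errors were smaller. The number of arrays limits the precision.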

Additional observations from a re-analysis of the deposited data

Results flagged for a closer look

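Among the 49 genes checked, the value of a single GL261 array stood far from the other 3 in 2 genes, both times in replicate 2. Chance alone flags about 1 in 20 groups by this measure. Psmc4, an ATPase of the regulatory particle, was at 11.85 in GL261 replicate 2 and at 12.27 to 12.36 in the others. Psme3, the nuclear activator, was at 10.74 in GL261 replicate 2 and at 10.40 to 10.45 in the others. Both genes were not called by limma, with all arrays and in each fit without 1 array.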

How the results depend on the processing

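As deposited 10 proteasome genes were called higher and 0 lower, and 0 were called lower under each of the 20 alternatives, while the number of called genes and the sign of some genes moved. With 1 value a gene, 32 (median centring) to 37 genes were above 0, and Psma6 and Psme1 were below 0 in 5 alternatives each, Psmd6 in 4, and Psma8, Psmb1, Psmb4 and Psmd7 in 1 each. Psmc2, below 0 as deposited, was below 0 in 15 of 19 alternatives. The number called higher was 18 with quantile normalization, 4 with median centring, 2 with a variance prior that does not follow the signal, 2 with probe sets averaged per gene, 4 without normal brain replicate 1 and GL261 replicate 2 together, and 3 to 10 without 1 array. It was 14 with the filter at the 60th percentile and 8 without a filter. The median log2 fold change was 0.33 to 0.51 over these alternatives. All genes called numbered 1227 as deposited, 455 without the signal-dependent prior and 542 to 1171 without 1 array. With the replicate number as a block 5 proteasome genes were called higher (13.2%), beside 4.13% of all genes. That fit carries no information from GL261 replicate 4, whose number has no partner. The number does not pair the arrays: deviations from the group means of same-numbered arrays correlated at 0.08, -0.01 and 0.03. Psma1 stayed called in 18 of 19 alternatives, Psmc1, Psmd14 and Psme4 in 16, Psmd13 in 15, Psmc5, Psmd2, Psmd10 and Psmd11 in 9 and Psmd12 in 8. The Gapdh ratio differed by -0.706 to -0.623 without 1 array, where 6 arrays cannot give an exact permutation p under 0.0667 or 0.1. Signals near the background level limit Psma8 and Psmb11.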
